A study of Mus musculus with 12 samples.

Results

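The subject is 4 chemokine genes of mouse microglia: Cxcl9, Cxcl10 and Cxcl11, whose products bind the receptor CXCR3, and Cxcl16, whose product is made as a membrane-bound protein. They were chosen by gene symbol, and all 4 symbols were found among the 14541 genes of the deposited expression table. The microglia, which are brain-resident macrophages, were isolated from forebrains of wild-type mouse pups at 7 to 9 postnatal days by their surface protein CD11b, on magnetic beads, then plated at 40000 to 80000 cells per well of a culture plate and collected 6 h after treatment. The Hevin group received recombinant Hevin at 500 nM, a protein that astrocytes secrete. The LPS group received lipopolysaccharide, a component of the bacterial cell wall, at 50 ng/mL. The Media group received growth medium in the volume of the treatments. Each group held 4 libraries, numbered 1 to 4, and the mouse strain is not given in the sources used here. Nothing in the labels tells if the 4 libraries of each group are separate animals, separate cultures or wells of 1 culture, and the p-values below cover the spread among these libraries alone.

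CXCL9, CXCL10 and CXCL11 draw activated T cells and natural killer cells that carry CXCR3, and their genes are classic targets of interferons, in part through interferon regulatory factors. Cxcl10 is also induced directly by the Toll-like receptor 4 pathway, which senses LPS and leads to NF-κB and to interferon β. CXCL16 joins a chemokine domain to a transmembrane stalk: on the cell surface it also acts as a scavenger receptor for oxidised lipoproteins, and the proteases ADAM10 and ADAM17 can cut it free to act on the receptor CXCR6.

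The CXCR3 ligand genes lie next to each other on chromosome 5, on the minus strand of GRCm38, within 44139 bases. In the GENCODE M21 annotation Cxcl9 covers chr5:92321347-92328079, Cxcl10 covers chr5:92346638-92348889 and Cxcl11 covers chr5:92359544-92365485. Cxcl16 lies apart from them, at chr11:70453983-70459984 on the minus strand. GENCODE M21 types Cxcl11 as a polymorphic pseudogene, a gene that is intact in some strains and not in others, and the other genes as protein coding. RefSeq types Cxcl11 as a transcribed pseudogene. Whether it is intact in these mice cannot be told, since their strain is not given. The 250 bases before the annotated start of Cxcl10 and Cxcl9 are shown because these neighbouring genes are both known interferon targets and were both higher in LPS libraries. They are credited to RefSeq on GRCm38.p6 and printed 5′ to 3′ along the gene, with motif matches in capitals.
Cxcl10, chr5:92348890-92349139, minus strand: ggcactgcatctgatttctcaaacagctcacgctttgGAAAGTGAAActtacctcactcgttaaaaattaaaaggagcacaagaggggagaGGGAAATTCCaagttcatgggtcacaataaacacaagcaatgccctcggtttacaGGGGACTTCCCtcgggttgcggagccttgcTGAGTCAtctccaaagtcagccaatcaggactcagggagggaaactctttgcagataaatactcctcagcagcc
Cxcl9, chr5:92328080-92328329, minus strand: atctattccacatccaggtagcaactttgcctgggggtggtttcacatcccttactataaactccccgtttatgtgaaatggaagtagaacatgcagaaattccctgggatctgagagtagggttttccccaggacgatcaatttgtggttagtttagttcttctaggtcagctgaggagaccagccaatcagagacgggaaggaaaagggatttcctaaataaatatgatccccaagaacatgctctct
A set of 4 motifs was searched on both strands: the interferon-stimulated response element as GAAA, any pair of bases and GAAA, the interferon γ-activated site as TTCNNNGAA, the AP-1 site as TGANTCA and the κB consensus by its name. In the Cxcl10 window the interferon-stimulated response element matched from base 213 to base 204 before the start. The κB consensus matched at 159 to 150 and, in a pair of matches that overlap each other, at 104 to 95 and 103 to 94. The AP-1 site matched at 74 to 68. None of the 4 motifs matched in the Cxcl9 window, which says only that these letters are not in these 250 bases. Among 32851 promoter windows of the same length, 7.25% held the κB consensus, 2.98% the interferon-stimulated response element, 7.02% the interferon γ-activated site and 6.75% the AP-1 site. Of the 4 genes, Cxcl9 and Cxcl10 matched the table of promoter windows.

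Gene levels are FPKM, reads scaled to gene length and library size, and each library held 18343996 to 27361665 reads in the listed genes, as recovered from these values. A minimum of 1 FPKM in 4 or more libraries left 11242 of 14541 genes, which were tested with limma on log2(FPKM + 1). Fold changes on that scale, given ± SE, understate the change of low genes, and a gene was called at a Benjamini-Hochberg adjusted p under 0.05 over all genes tested. Cxcl9 and Cxcl11 passed this filter only through the 4 LPS libraries. All 12 microglia markers were listed, and their summed level was 1144 to 1738 FPKM in Hevin, 580 to 875 FPKM in LPS and 643 to 908 FPKM in Media. The 3 libraries numbered 2 stood apart in every group. Their summed monocyte and neutrophil markers (8 of 9 listed, S100a9 highest, none at 0 in every library) reached 1916 FPKM in Hevin, 2081 FPKM in LPS and 2047 FPKM in Media, against 40.0 to 106 FPKM in the other libraries. Values without those 3 libraries are given for the 4 genes and where they end the call of a gene described below. Counts over gene lists without them are given for some lists only. The part of monocytes and neutrophils in the results was not tested. The astrocyte list (8 of 8 listed, Gja1 highest, none at 0 in every library) summed to 21.0 to 44.4 FPKM in Hevin, 112 to 234 FPKM in LPS and 50.0 to 86.2 FPKM in Media, and its part in the results was not tested either. These sums are mostly the level of Gja1, which averaged 86.6 FPKM over the 12 libraries. Only 3 of the 8 astrocyte genes passed the filter, and 1 was called in each comparison. In such bulk libraries, fewer cells of a type and less RNA per cell cannot be told apart.

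Cxcl16 was the gene of the 4 that rose with Hevin. It stood at 119, 82.7, 106 and 105 FPKM in Hevin libraries 1 to 4, at 156, 167, 150.0 and 149 FPKM in LPS libraries and at 42.7, 30.6, 32.6 and 31.4 FPKM in Media libraries. Every Hevin library lay above every Media library and below every LPS library. Against Media, Hevin raised the mean 3.01-fold, at 103 ± 15.1 FPKM in Hevin and 34.3 ± 5.67 FPKM in Media (SD, n = 4 each; log2 fold change 1.56 ± 0.13, limma adjusted p = 1.42e-05). Over all genes tested, 4.27% were called higher and 3.1% lower in Hevin than in Media, and 9.05% had every Hevin library above every Media library. Within the library numbers the ratio of Hevin to Media was 2.79, 2.70, 3.24 and 3.35. By mean level Cxcl16 held place 442 of 14541 genes in Hevin, 426 in LPS and 1950 in Media. The rise was 1.61 ± 0.12 on the log2 scale without the libraries numbered 2 (limma adjusted p = 0.000137).

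LPS raised Cxcl16 4.52-fold, at 155 ± 8.23 FPKM in LPS against 34.3 ± 5.67 FPKM in Media (SD, n = 4 each; log2 fold change 2.16 ± 0.13, limma adjusted p = 3.03e-07). Of all genes tested, 13.2% were called higher and 12.6% lower in LPS than in Media, and 13.3% had every LPS library above every Media library. Compared directly, Cxcl16 was lower in Hevin than in LPS in 4 of 4 library numbers (log2 fold change -0.59 ± 0.13, limma adjusted p = 0.00266). In that comparison 22% of genes were called higher and 19.7% lower, and 17.5% had every Hevin library under every LPS library. The call of Cxcl16 between Hevin and LPS ended with quantile normalization, at -0.082 ± 0.13 (limma adjusted p = 0.641), and with FPKM free of the authors' scaling factors, at -0.24 ± 0.12 (limma adjusted p = 0.103), where the median of all genes moved by 0.30. The rises of Cxcl16 over Media kept their direction and call under both settings.

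**Figure D1:**
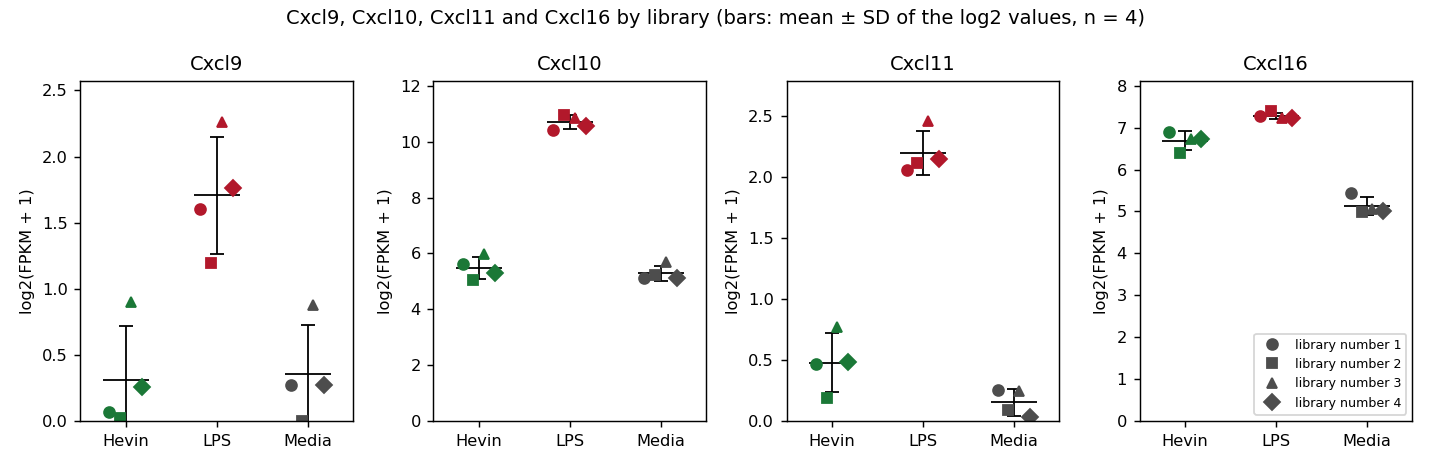
Levels of the 4 chemokine genes in each library, as log2(FPKM + 1), with groups Hevin, LPS and Media along the axis, 1 point per library, a symbol for each library number, and bars for mean ± SD (n = 4). Cxcl16 lies between 82.7 and 119 FPKM in Hevin and between 30.6 and 42.7 FPKM in Media, while the Hevin and Media points of Cxcl9 and Cxcl10 overlap.

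The annotated exons of Cxcl16 share 552 bases, 18.3% of its exon bases, with those of its neighbour Zmynd15, which lies on the opposite strand. The library kit marks strand, but whether counting used it is not given in the sources used here, so reads of both genes in the shared stretch cannot be told apart. Zmynd15 stood at 6.76, 4.23, 6.97 and 7.52 FPKM in Hevin libraries 1 to 4, at 7.05, 5.15, 5.21 and 4.67 FPKM in LPS libraries and at 2.78, 1.38, 1.90 and 1.90 FPKM in Media libraries. Both treatments lay above Media without overlap, and Hevin and LPS overlapped each other. Against Media the log2 fold change of Zmynd15 was 1.30 ± 0.18 in Hevin (limma adjusted p = 0.000958) and 1.13 ± 0.18 in LPS (limma adjusted p = 0.000839). Recovered reads of Cxcl16 outnumbered those of Zmynd15 by 12.3 to 17.1 times in Hevin, 19.3 to 28.3 times in LPS and 13.4 to 19.3 times in Media.

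**Figure D2:**
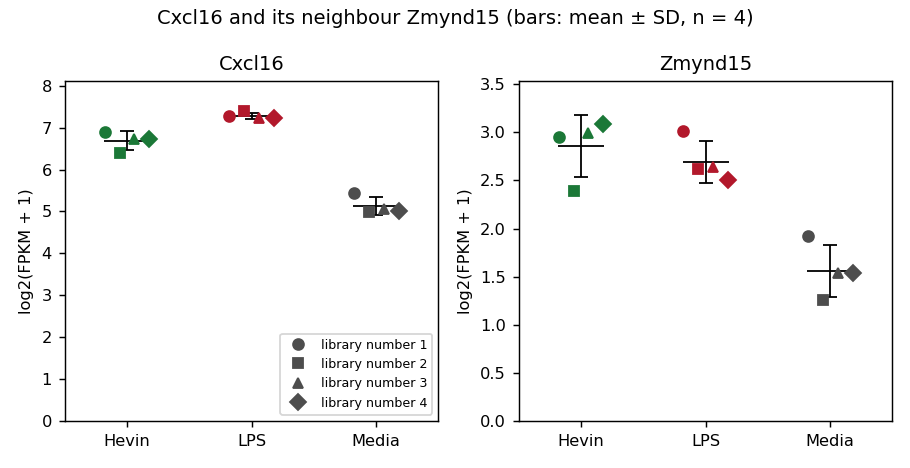
Cxcl16 and the overlapping neighbour gene Zmynd15 in each library, as log2(FPKM + 1), with groups along the axis, 1 point per library and bars for mean ± SD (n = 4). Both genes are higher in Hevin and LPS than in Media, and for Zmynd15 the Hevin points (4.23 to 7.52 FPKM) and LPS points (4.67 to 7.05 FPKM) overlap.

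Cxcl10 was the gene of the 4 with the largest change in LPS on the log2 scale. It stood at 48.4, 32.1, 61.9 and 38.3 FPKM in Hevin libraries 1 to 4, at 1368, 2016, 1853 and 1525 FPKM in LPS libraries and at 33.6, 36.6, 50.5 and 33.9 FPKM in Media libraries. LPS libraries were all far above the others, and Hevin and Media overlapped. LPS raised it 43.7-fold, at 1690.3 ± 296 FPKM in LPS and 38.6 ± 8.0 FPKM in Media (SD, n = 4 each; log2 fold change 5.42 ± 0.20, limma adjusted p = 1.47e-08), with the third smallest p of the 11242 genes tested. By mean level it held place 24 of 14541 genes in LPS, against 1696 in Media. With Hevin its level was 45.2 ± 13 FPKM, higher than in Media in 3 of 4 library numbers. The log2 fold change over Media was 0.20 ± 0.20 with a 95% interval of -0.24 to 0.64 (limma adjusted p = 0.666). Blocking on library number narrowed the SE to 0.15, and Cxcl10 was still not called (limma adjusted p = 0.382). Compared directly, Cxcl10 was lower in Hevin than in LPS by 5.22 ± 0.20 on the log2 scale (log2 fold change -5.22, limma adjusted p = 6.33e-09). The exons of Cxcl10 share 133 bases with those of Art3 on the opposite strand, which stayed at 0.0230 to 0.446 FPKM in Hevin, 0.334 to 0.686 FPKM in LPS and 0.0453 to 0.376 FPKM in Media.

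Cxcl11 was low in every group, rose with LPS and was not called with Hevin. It stood at 0.382, 0.136, 0.708 and 0.398 FPKM in Hevin libraries 1 to 4, at 3.16, 3.32, 4.49 and 3.43 FPKM in LPS libraries and at 0.188, 0.0643, 0.183 and 0.0221 FPKM in Media libraries. Behind these values lay 5 to 36 reads per library in Hevin, 91 to 176 in LPS and 1 to 8 in Media, so the Hevin and Media levels rest on few reads. LPS lay above the other groups in every library (LPS over Media, log2 fold change 2.04 ± 0.14, limma adjusted p = 1.27e-06). Directly compared, Cxcl11 was lower in Hevin than in LPS, with a log2 fold change of -1.72 ± 0.14 (limma adjusted p = 2.74e-06). Cxcl11 entered the test only through its LPS libraries, so its p-values in comparisons with LPS are not separate support for the rise. Hevin and Media overlapped, since Hevin library 2 lay under Media libraries 1 and 3, yet Hevin exceeded Media in 4 of 4 library numbers, by 2.03, 2.11, 3.86 and 18.0 times. The log2 fold change of Hevin over Media was 0.32 ± 0.14 (limma adjusted p = 0.227), or adjusted p = 0.0509 with the replicate number as a block. On recovered reads with limma-voom it was 1.90 ± 0.69 (adjusted p = 0.127), and with the replicate block as well it was 1.85 ± 0.47 and called (adjusted p = 0.00947). Of all genes tested, limma-voom called 4.55% higher in Hevin than in Media, or 12.1% with the block. The exons of Cxcl11 share 1582 bases with the pseudogene Gm2673 on the opposite strand. Its reads were divided by a length of about 1604 bases, as the values imply when the listed reads are taken as the library total, against 3794 exon bases in GENCODE M21, so its level beside other genes depends on that length.

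Cxcl9 was also low, rose with LPS and differed between libraries more than between Hevin and Media. It stood at 0.0496, 0.0150, 0.868 and 0.195 FPKM in Hevin libraries 1 to 4, at 2.03, 1.29, 3.80 and 2.40 FPKM in LPS libraries and at 0.208, 0, 0.835 and 0.207 FPKM in Media libraries. The Media library at 0 had no read, and 3 reads there would have been 0.0533 FPKM. LPS libraries lay above all others, at 2.38 ± 1.05 FPKM in LPS and 0.313 ± 0.362 FPKM in Media (SD, n = 4 each; log2 fold change 1.35 ± 0.27, limma adjusted p = 0.00303). Cxcl9 was lower in Hevin than in LPS, with a log2 fold change of -1.39 ± 0.27 (limma adjusted p = 0.00141). Like Cxcl11, it entered the test only through its LPS libraries, so its p-values in comparisons with LPS are not separate support for the rise. With Hevin the mean was 0.282 ± 0.399 FPKM. The log2 fold change over Media was -0.04 ± 0.27 with a 95% interval of -0.62 to 0.53 (limma adjusted p = 0.958). Cxcl9 was higher in 2 of 4 library numbers and lower in 2. That SE and interval include the spread between library numbers. Blocking on library number narrowed the SE to 0.097, and Cxcl9 was still not called (limma adjusted p = 0.797). Without the libraries numbered 2, the changes with LPS over Media were 1.40 ± 0.28 for Cxcl9 (limma adjusted p = 0.00674), 5.31 ± 0.21 for Cxcl10 (limma adjusted p = 1.71e-06), 2.05 ± 0.16 for Cxcl11 (limma adjusted p = 4.05e-05) and 2.07 ± 0.12 for Cxcl16 (limma adjusted p = 1.02e-05). Without them the 4 genes also stayed lower in Hevin than in LPS, with log2 fold changes of -1.47 for Cxcl9, -4.98 for Cxcl10, -1.65 for Cxcl11 and -0.46 for Cxcl16 (limma adjusted p = 0.00327, 1.18e-06, 7.97e-05 and 0.0154 in that order). For Hevin over Media without them, the log2 fold change was -0.06 for Cxcl9, 0.33 for Cxcl10 and 0.40 for Cxcl11, none of them called (limma adjusted p = 0.956, 0.479 and 0.209).

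**Figure D3:**
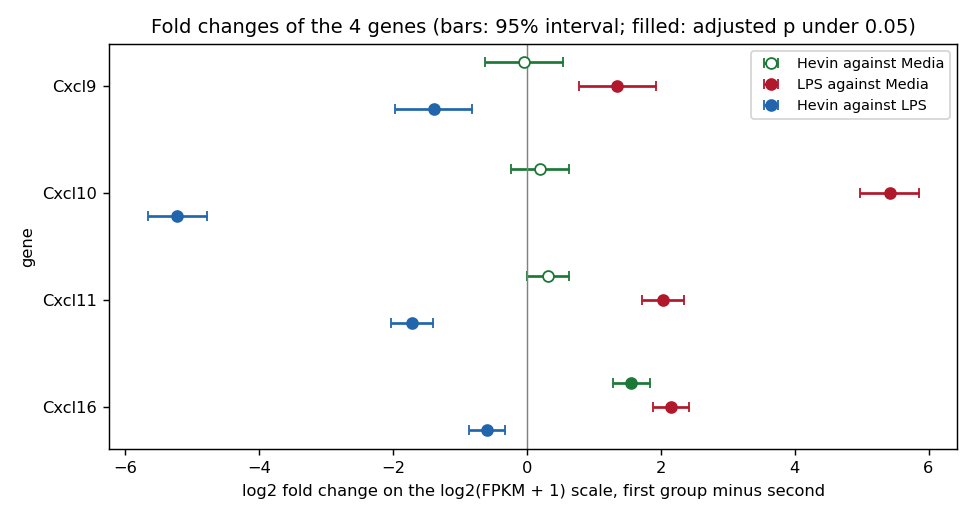
Log2 fold changes of the 4 genes on the log2(FPKM + 1) scale, first group minus second, with 95% intervals and filled points where the adjusted p was under 0.05 (n = 4 per group). Cxcl16 at 1.56 is the only filled point for Hevin against Media, and all 4 genes are filled for LPS against Media and for Hevin against LPS. Cxcl9 and Cxcl11 entered the test only through their LPS libraries.

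The level of Cxcl9 followed the library number. Library 3 was highest and library 2 lowest in each of the 3 groups. The summed level of 26 interferon-induced genes ran in the order library 3, 4, 1 and 2 in every group, as did Cxcl9 in Hevin and LPS, while in Media libraries 1 and 4 stood at 0.208 and 0.207 FPKM. The summed interferon-induced genes of libraries 3 and 2 were 3179 and 613 FPKM in Hevin, 11333 and 4936 FPKM in LPS and 3025 and 706 FPKM in Media. Cxcl10 kept no such order: library 2 was its lowest in Hevin and its highest in LPS. Library 3 also had the highest summed endothelial markers (8 of 8 listed, Cdh5 highest, none at 0 in every library), at 152 FPKM in Hevin, 169 FPKM in LPS and 147 FPKM in Media. The summed neuron markers (8 of 8 listed, Tubb3 highest, none at 0 in every library) were also highest in library 3, at 18.4 FPKM in Hevin, 23.2 FPKM in LPS and 16.1 FPKM in Media. The part of these cells was not tested.

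**Figure D4:**
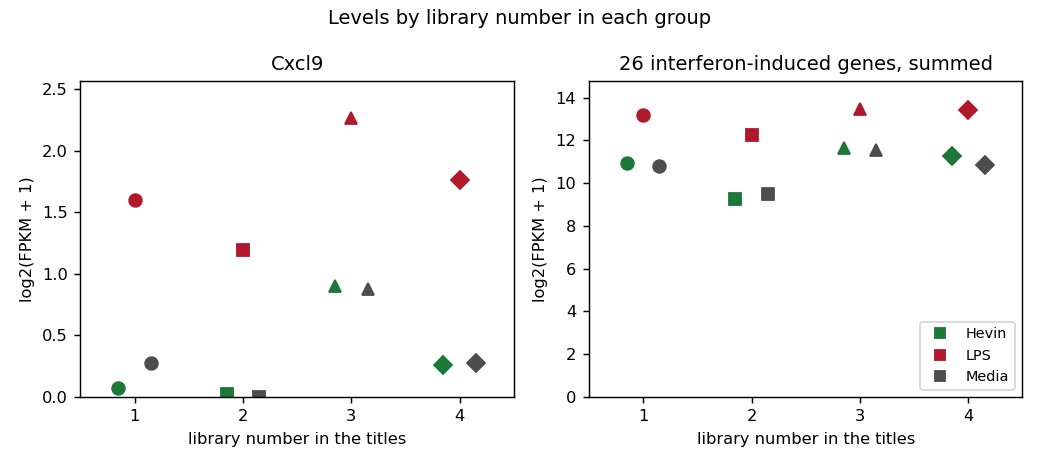
Cxcl9 and the summed level of 26 interferon-induced genes by library number, as log2(FPKM + 1), with 1 point per library and colours for Hevin, LPS and Media. In each panel library 3 is highest and library 2 lowest within every group.

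The order of the 4 genes by FPKM differed between groups. In Hevin, Cxcl16 exceeded Cxcl10 in every library, with ranges that did not overlap. In LPS the order was the reverse, Cxcl10 exceeding Cxcl16 without overlap, and in Media their ranges overlapped, with Cxcl10 the higher in 3 of 4 libraries. The ratio of Cxcl10 to Cxcl16 was 0.364 to 0.586 in Hevin, 8.80 to 12.4 in LPS and 0.785 to 1.55 in Media. Cxcl9 and Cxcl11 were the lowest of the 4 in every group, and their ranges overlapped each other in each. Cxcl10 made up 97.5% to 99.8% of the summed FPKM of the CXCR3 ligand genes in each of the 12 libraries. Levels of different genes depend on the lengths used. The values imply about 1100 bases for Cxcl10 and 2448 for Cxcl16 when the listed reads are taken as the library total. GENCODE M21 gives 2252 and 3021 exon bases for them, so their ratio and order within a group rest on that choice. The change of the ratio between groups does not.

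Among receptors and proteases that act on these chemokines, Cxcr6, the receptor of CXCL16, rose with LPS and was not called with Hevin. It stood at 2.26, 2.44, 3.3 and 2.49 FPKM in Hevin libraries 1 to 4, at 4.28, 4.82, 5.59 and 5.24 FPKM in LPS libraries and at 1.56, 2.13, 2.23 and 2.36 FPKM in Media libraries. Only LPS was clear of Media (LPS over Media, log2 fold change 0.97 ± 0.12, limma adjusted p = 0.000177), while Hevin over Media was 0.24 ± 0.12 (limma adjusted p = 0.315). Cxcr3 was under the filter, at 0.371 ± 0.154 FPKM in Hevin, 0.224 ± 0.139 FPKM in LPS and 0.763 ± 0.228 FPKM in Media (SD, n = 4 each). A fit with no filter on low values gave Cxcr3 a log2 fold change of -0.52 ± 0.12 for LPS over Media (limma adjusted p = 0.0082) and -0.36 ± 0.12 for Hevin over Media (limma adjusted p = 0.115). These Cxcr3 values rest on few reads, 11 to 22 per Hevin library, 3 to 14 per LPS library and 21 to 46 per Media library. Of 15 lymphocyte and natural killer markers, 5 were listed, Cxcr6 being the highest, with sums of 6.01 to 7.61 FPKM in Hevin, 7.37 to 8.80 FPKM in LPS and 5.15 to 6.81 FPKM in Media. Cxcr6 and Cxcr3 are themselves on this list. Cxcr6 alone gave 4.28 to 5.59 FPKM of the LPS sums and 1.56 to 2.36 FPKM of the Media sums. The higher LPS sums are therefore not separate from its rise.

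Adam17, the gene of a sheddase of CXCL16, stood at 84.8, 76.7, 86.0 and 86.7 FPKM in Hevin libraries 1 to 4, at 105, 102, 107 and 112 FPKM in LPS libraries and at 70.0, 54.1, 70.8 and 69.7 FPKM in Media libraries. Neither treatment overlapped Media. The log2 fold change over Media was 0.34 ± 0.09 in Hevin (limma adjusted p = 0.0462) and 0.69 ± 0.09 in LPS (limma adjusted p = 0.000241). The call with Hevin ended when any 1 of the 12 libraries was left out (limma adjusted p 0.0507 to 0.124), the Media library numbered 2 among them (0.0872). The direct difference, -0.35 ± 0.09 for Hevin over LPS (limma adjusted p = 0.0105), turned to 0.065 with quantile normalization and to 0.0063 with no scaling factors. Adam10, the other sheddase gene, averaged 77.1 ± 10.6 FPKM in Hevin, 69.0 ± 18.9 FPKM in LPS and 54.3 ± 9.22 FPKM in Media (SD, n = 4 each). It was higher than in Media in 4 of 4 library numbers with each treatment. Adam10 was not called over Media (limma adjusted p = 0.117 in Hevin and 0.214 in LPS), and the replicate block called it in both (limma adjusted p = 0.000795 in Hevin and 0.00577 in LPS), as did limma-voom with the block. In Hevin it was also called with upper quartile scaling (limma adjusted p = 0.0381), with quantile normalization (0.0195), with no scaling factors (0.0368) and without LPS library 1 (0.0448). Of the 10 receptor, decoy and protease genes tested, 1 rose and 2 fell with Hevin over Media (median log2 fold change -0.02, all genes 0.00). Of all genes, 4.27% were called higher and 3.1% lower there. The 1 that rose, Adam17, was not called by limma-voom (adjusted p = 0.0517). With LPS over Media 4 rose and 1 fell (median 0.20, all genes -0.02), beside 13.2% and 12.6% of all genes. Between Hevin and LPS none was higher, by limma, by unadjusted p or by limma-voom, and 4 were lower (median -0.27, all genes 0.02). In that comparison 22% of all genes were called higher and 19.7% lower. Adam10 was called higher in Hevin than in LPS with quantile normalization (limma adjusted p = 0.00912), with no scaling factors (0.00648) and by limma-voom with the replicate block (0.0411), and Anpep was as well with no scaling factors (0.0238). Mmp13, a collagenase gene, averaged 10.9 ± 4.22 FPKM in Hevin, 516 ± 72.2 FPKM in LPS and 34.3 ± 7.83 FPKM in Media (SD, n = 4 each), and it fell with Hevin by 1.62 ± 0.23 on the log2 scale (limma adjusted p = 0.00113). Anpep, whose aminopeptidase can trim chemokines, fell with both treatments, by 0.83 ± 0.13 with Hevin (limma adjusted p = 0.00238). Dpp4, which encodes a protease that clips the CXCR3 ligands, was under the filter, at 0.0600 FPKM in Hevin, 0.106 FPKM in LPS and 0.0684 FPKM in Media on average.

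The interferon route, from LPS sensing to interferon receptors and their kinases, was mostly higher in LPS and mixed in Hevin. Ifnb1, the interferon β gene, stood at 0.281, 0.509, 0.0410 and 0.138 FPKM in Hevin libraries 1 to 4, at 9.56, 23.5, 28.2 and 17.4 FPKM in LPS libraries and at 0.638, 1.27, 1.10 and 0.552 FPKM in Media libraries. The Hevin levels rest on only 1 to 9 reads per library, and the Media levels on 12 to 23. Beside the 4 LPS libraries, only the Media libraries at 1.27 and 1.10 FPKM reached 1 FPKM. Ifnb1 thus passed the filter only because of LPS, and its p-values in comparisons with LPS are not separate support for the rise. The log2 fold change over Media was 3.37 ± 0.27 in LPS (limma adjusted p = 3.85e-06) and -0.60 ± 0.27 in Hevin (limma adjusted p = 0.232), where a pseudocount of 0.1 (-1.67, limma adjusted p = 0.0492) and limma-voom with the replicate block (-2.08, adjusted p = 0.00789) called it lower. Ifng, the interferon γ gene, is not among the listed genes. Irf1, an interferon regulatory factor gene, averaged 15.6 FPKM in Hevin, 58.6 FPKM in LPS and 15.4 FPKM in Media. Its log2 fold change was 1.88 ± 0.18 for LPS over Media (limma adjusted p = 1.92e-05), against 0.00 ± 0.18 for Hevin over Media (limma adjusted p = 0.998).

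Jak2, a kinase of the interferon γ receptor, rose with both treatments, at 44.4 ± 2.85 FPKM in Hevin, 60.0 ± 13.2 FPKM in LPS and 22.3 ± 1.80 FPKM in Media (SD, n = 4 each; limma adjusted p = 0.000955 for Hevin and 1.96e-05 for LPS). Irf8, a regulator of microglial identity, rose with Hevin (45.4 ± 6.57 FPKM) and fell with LPS (18.6 ± 3.69 FPKM) against 25.8 ± 3.16 FPKM in Media (SD, n = 4 each; limma adjusted p = 0.00559 for Hevin and 0.0344 for LPS). Its call with LPS held in 6 of the 12 fits that left out 1 library (limma adjusted p 0.0102 to 0.0936) and ended without the libraries numbered 2 (log2 fold change -0.43, limma adjusted p = 0.107). Ikbke, a kinase gene upstream of interferon induction, fell with Hevin to 5.68 ± 0.614 FPKM and rose with LPS to 48.8 ± 10.2 FPKM, against 12.7 ± 2.91 FPKM in Media (SD, n = 4 each; limma adjusted p = 0.00336 for Hevin and 1.18e-05 for LPS). Ticam1, which encodes the adaptor TRIF between Toll-like receptor 4 and interferon induction, fell with Hevin to 18.6 ± 0.972 FPKM against 29.8 ± 2.05 FPKM in Media (SD, n = 4 each; limma adjusted p = 0.00103). Of 25 genes of this route tested, 5 rose and 3 fell with Hevin over Media (median log2 fold change 0.05, all genes 0.00). Of all genes, 4.27% were called higher and 3.1% lower there. With LPS over Media 14 rose and 4 fell (median 0.98, all genes -0.02), beside 13.2% and 12.6% of all genes. Between Hevin and LPS 4 were higher and 12 lower (median -0.70, all genes 0.02), beside 22% and 19.7% of all genes.

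Interferon-induced genes outside the chemokines rose with LPS and were not called with Hevin. Of 26 tested, 16 rose and none fell with LPS over Media (median log2 fold change 2.06, all genes -0.02), beside 13.2% and 12.6% of all genes. With the replicate block 26 rose, beside 21.5% of all genes, and 25 rose without the libraries numbered 2. None was lower by unadjusted p or limma-voom. With Hevin over Media none was called in either direction by limma, beside 4.27% of all genes higher and 3.1% lower. None had an unadjusted p under 0.05 and none was called by limma-voom, which called 4.55% of all genes higher and 3.14% lower (median 0.07, all genes 0.00). The replicate block called 3 of them higher, Dhx58, Gbp3 and Trim30a, beside 10.8% of all genes, and limma-voom with the block called 7 higher, beside 12.1%. Between Hevin and LPS 16 were lower, or 24 without the libraries numbered 2, and none was higher, also by unadjusted p and limma-voom (median -1.86, all genes 0.02). Of all genes, 19.7% were called lower and 22% higher in that comparison. Gbp5, an interferon-inducible GTPase gene, averaged 5.12 ± 2.89 FPKM in Hevin, 175 ± 62.1 FPKM in LPS and 5.36 ± 2.41 FPKM in Media (SD, n = 4 each; LPS over Media log2 fold change 4.80 ± 0.40, limma adjusted p = 5.45e-06). Ifih1, a sensor of viral RNA, averaged 29.9 ± 12 FPKM in Hevin, 255 ± 31.2 FPKM in LPS and 29.7 ± 13.1 FPKM in Media (SD, n = 4 each).

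The NF-κB route rose with LPS, with 13 of 19 genes higher and 1 lower over Media (median log2 fold change 1.09, all genes -0.02). Of all genes, 13.2% were called higher and 12.6% lower there. With Hevin over Media 2 fell, Nfkbiz and Rela (median -0.17, all genes 0.00), beside 3.1% of all genes lower and 4.27% higher. With the replicate block 4 fell, beside 10.6% of all genes, and 5 were lower at an unadjusted p under 0.05. Without the libraries numbered 2 none fell, and Nfkbiz and Rela had limma adjusted p of 0.123 each. None rose by limma, by unadjusted p or by limma-voom, but limma-voom with the replicate block called 2 higher and 6 lower, beside 12.1% and 12.2% of all genes. Between Hevin and LPS 1 was higher and 13 lower (median -1.25, all genes 0.02), beside 22% and 19.7% of all genes. Nfkbiz, an NF-κB cofactor gene, averaged 14.7 ± 1.23 FPKM in Hevin, 202 ± 39.4 FPKM in LPS and 23.5 ± 3.44 FPKM in Media (SD, n = 4 each), and its fall with Hevin was 0.64 ± 0.15 on the log2 scale (log2 fold change -0.64, limma adjusted p = 0.0219). With 1 library left out, the call of Nfkbiz held in 6 of 12 fits and that of Rela in 2 of 12. Tnfaip3, a brake on the same pathway, averaged 55.4 ± 8.26 FPKM in Hevin, 650.0 ± 96.5 FPKM in LPS and 51.4 ± 5.95 FPKM in Media (SD, n = 4 each; LPS over Media log2 fold change 3.63 ± 0.13, limma adjusted p = 1.47e-08).

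Among the other chemokine genes, most of those called moved down with Hevin, unlike Cxcl16. Of 21 tested, 1 rose and 7 fell with Hevin over Media (median log2 fold change -0.83, all genes 0.00), beside 4.27% and 3.1% of all genes. With the replicate block 1 rose and 14 fell, beside 10.8% and 10.6% of all genes, and without the libraries numbered 3 the 7 became 4. With LPS over Media 12 rose and 1 fell (median 1.62, all genes -0.02), beside 13.2% and 12.6% of all genes. Between Hevin and LPS 2 were higher and 12 lower (median -2.66, all genes 0.02), beside 22% and 19.7% of all genes. Cxcl14, which encodes a homeostatic chemokine, was the one that rose with Hevin, at 4.34 ± 0.734 FPKM in Hevin, 0.484 ± 0.327 FPKM in LPS and 0.537 ± 0.185 FPKM in Media (SD, n = 4 each; Hevin over Media log2 fold change 1.79 ± 0.17, limma adjusted p = 5.95e-05). It passed the filter only through the 4 Hevin libraries, as it reached at most 0.783 FPKM in LPS and 0.698 FPKM in Media, and a filter at 5 FPKM left no other chemokine gene called higher in Hevin than in Media. The neutrophil-attracting chemokine gene Cxcl2 averaged 105 ± 6.44 FPKM in Hevin, 3680 ± 1371 FPKM in LPS and 438 ± 128 FPKM in Media (SD, n = 4 each; Hevin over Media log2 fold change -2.0 ± 0.28, limma adjusted p = 0.000994). Ccl4, a CC chemokine gene, averaged 208 ± 35.0 FPKM in Hevin, 4276 ± 461 FPKM in LPS and 461 ± 52.5 FPKM in Media (SD, n = 4 each; Hevin over Media log2 fold change -1.15 ± 0.13, limma adjusted p = 0.000195). Both comparisons share the Media libraries, so their values are given side by side only.

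**Figure D5:**
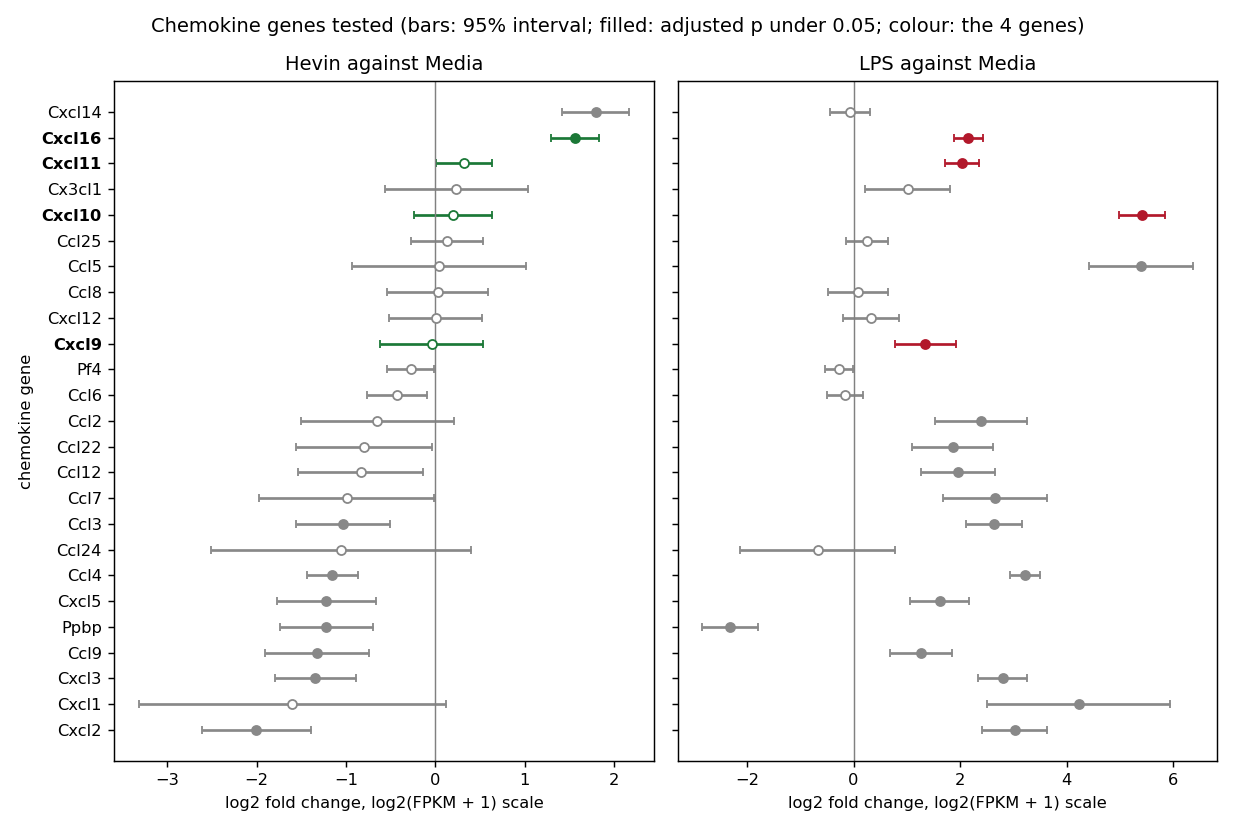
Log2 fold changes on the log2(FPKM + 1) scale of the 4 genes (coloured, bold names) and the 21 other chemokine genes tested (grey), for Hevin against Media at left and LPS against Media at right, with 95% intervals and filled points where the adjusted p was under 0.05. Cxcl14 and Cxcl16 are the filled points above 0 for Hevin, and 7 grey points are filled below 0.

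Because CXCL16 is also a scavenger receptor, scavenger receptor genes were set beside it. Of 14 tested, 3 rose and 1 fell with Hevin over Media (median log2 fold change -0.02, all genes 0.00), 5 rose and 5 fell with LPS over Media (median 0.00, all genes -0.02), and between Hevin and LPS 5 were higher and 3 lower (median 0.23, all genes 0.02). The shares of all genes called higher and lower were 4.27% and 3.1%, 13.2% and 12.6%, and 22% and 19.7% in those comparisons. Without the libraries numbered 2, the scavenger counts with LPS over Media were 4 higher and 2 lower. They were then 3 and 1 with Hevin over Media, and 4 and 4 between Hevin and LPS. Olr1, a receptor of oxidised low-density lipoprotein, rose with both treatments, at 10.3 ± 3.12 FPKM in Hevin, 8.64 ± 3.97 FPKM in LPS and 1.15 ± 0.549 FPKM in Media (SD, n = 4 each; limma adjusted p = 0.00164 for Hevin and 0.00148 for LPS). Axl, a receptor for dying cells, also rose with both, at 55.5 ± 8.85 FPKM in Hevin, 50.4 ± 6.39 FPKM in LPS and 22.4 ± 3.56 FPKM in Media (SD, n = 4 each; limma adjusted p = 0.00019 for Hevin and 0.000134 for LPS). Msr1, a class A scavenger receptor gene, fell with Hevin and rose with LPS, at 40.4 ± 6.91 FPKM in Hevin, 152 ± 41.9 FPKM in LPS and 69.5 ± 12.7 FPKM in Media (SD, n = 4 each; limma adjusted p = 0.0411 for Hevin and 0.00228 for LPS). Its call with Hevin held in 3 of the 12 fits that left out 1 library (limma adjusted p 0.0175 to 0.116).

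The genes whose pattern over the 12 libraries was most like each of the 4 were found by the root mean square difference between centred log2(FPKM + 1) profiles, among genes with a mean of at least 5 FPKM in at least 1 group. For Cxcl16 they were Gpr84 (0.30), Sh2b2 (0.36) and Tlr2 (0.37), all higher in both treatments than in Media: Gpr84, a fatty acid receptor gene, averaged 169 ± 56.1 FPKM in Hevin, 293 ± 33.8 FPKM in LPS and 60.1 ± 14.1 FPKM in Media (SD, n = 4 each). For Cxcl10 they were Ptges (0.38), Irg1 (0.43) and Ccl5 (0.47), all far higher in LPS than in the other groups: Ptges, a prostaglandin E synthase gene, averaged 10.8 ± 3.28 FPKM in Hevin, 341 ± 130 FPKM in LPS and 6.70 ± 2.21 FPKM in Media (SD, n = 4 each). For Cxcl11 they were Fscn1 (0.17), Cflar (0.17) and Ttc39c (0.20), and for Cxcl9 they were Nampt (0.22), Nt5c3 (0.23) and Agrn (0.24). The profiles of Cxcl9 and Cxcl11 differed from each other by 0.37, and that of Cxcl10 differed from Cxcl9 by 1.89 and from Cxcl16 by 1.96, a measure that grows with the size of a gene's change. The 12 libraries share the 3 groups and the 4 library numbers, so these values describe likeness in these libraries only.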

How the data were processed

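RNA of 12 microglia libraries in 3 groups of 4 (100 ng each, strand-marking poly(A) kit) was read as 100 bp pairs, per the labels' protocols. The submitters' processing notes list the build mm10, R 4.0.0 with edgeR 3.30.3, featureCounts and Subread 1.6.3, Bowtie2 2.3.5.1, Trimmomatic 0.39 and FastQC 0.11.7, without their roles. The authors deposited FPKM values for 14541 genes, 22 of them with symbols turned into dates. The annotation, strand use and row filter are unstated in the sources used here.

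In all 14541 rows (100%) the values were whole multiples of 1 read within 0.1 (largest distance 0.0001081), so whole reads were recovered. They rebuild FPKM with library factors of 0.804 to 0.897 in LPS and 1.02 to 1.16 in Hevin and Media.

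Log2(FPKM + 1) was fitted with limma 3.58.1 in R 4.3.3, with a mean-variance trend, all 3 groups together and no block, on 11242 genes. Alternatives were pseudocounts of 0.1 and 5, other filters and scalings, the replicate block, limma-voom on recovered reads and leaving out libraries. The fits and the recovery were tested on simulated data. Same-numbered libraries deviated together in 12 of 12 pairs (correlation 0.230 to 0.784), so the title numbers pair the libraries. The blocked value is printed where it changes a call and for Cxcl9, Cxcl10 and Cxcl11 in Hevin over Media. Other SE and intervals are from the fit with no block unless stated. The 4 genes and the gene lists were chosen with earlier results of these data known. Named genes are the 4 smallest p per list and comparison, receptors, proteases and interferon genes set by name, and the 3 most alike genes; the text leaves out some. Some results are not reported here. Figures were drawn with matplotlib 3.10.9.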

Additional observations from a re-analysis of the deposited data

Results flagged for a closer look

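Cxcl16 stood at 42.7 FPKM in the Media library numbered 1, apart from 30.6, 31.4 and 32.6 FPKM in the other Media libraries. Without that library its log2 fold change for Hevin over Media was 1.67 ± 0.11. Adam17 stood at 54.1 FPKM in the Media library numbered 2, apart from 69.7, 70.0 and 70.8 FPKM in the others. These were the 2 of 39 groups of 4 libraries examined in which the gap of 1 library exceeded Dixon's 95% critical value, and chance gives about 1 such group in 20.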

How the results depend on the processing

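Of the values of the 4 genes over 26 alternatives, 300 kept their direction and their side of the threshold; the cause of the changes below was not tested. Cxcl9 over Media in Hevin, not called, ranged from -0.24 to 0.13 when single libraries were left out and turned above 0 without Hevin library 1 (0.04), Hevin library 2 (0.05) or Media library 3 (0.13). Cxcl11 over Media in Hevin became called only with limma-voom and the replicate block (1.85). Cxcl16 in Hevin over LPS lost its call with quantile normalization (-0.082) and with no scaling factors (-0.24), the settings that also turned Adam17 (0.065 and 0.0063). The filter at 5 FPKM left no value for Cxcl9 and Cxcl11. The replicate block, applied because the numbers pair the libraries, moved the genes called higher and lower in Hevin over Media to 1210 and 1196 (480 and 349 without it), and in LPS over Media to 2416 and 2498 (1484 and 1413 without it); it changed no call of the 4 genes. With limma-voom and the block these were 1363 and 1366 for Hevin, 2438 and 2519 for LPS. Leaving out single libraries gave 308 to 541 higher and 203 to 389 lower in Hevin over Media; the counts moved by over 1.5 times without Hevin library 4 or Media library 3 and, for lower genes, also without Hevin library 3 or Media library 4. Without the 3 libraries numbered 3, added after seeing the data, they were 216 and 102 in Hevin over Media, 947 and 672 in LPS over Media. With no scaling factors, also added later, LPS over Media gave 736 higher and 4990 lower, and Hevin over LPS gave 5398 higher and 971 lower (2470 and 2215 with them). Upper quartile scaling gave 2466 lower in LPS over Media, and the filter at 5 FPKM gave 1604 higher in Hevin over LPS. Read counts of 80 or fewer per library limit Cxcl9 and Cxcl11 in Hevin and Media.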
